A study of Mus musculus with 6 samples.

Results

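The ubiquitin-specific proteases other than Usp21 were taken as every gene whose symbol is Usp followed by a number, with or without further letters. The symbol alone chose them, and 55 of the 24532 genes in the deposited table qualified. Reads were sufficient for a test in 45 of these, and 10 were not tested. The samples were whole gastrocnemius, a large calf muscle, from C57BL/6 mice 12 weeks old. The 3 knockout mice carried USP21 flox/flox alleles and Ckmm-Cre, a recombinase under the muscle creatine kinase promoter, and the 3 control mice carried USP21 flox/flox alleles without the recombinase; the labels enter the genotype of controls as Litter. Both groups therefore share the floxed alleles. That promoter is active in muscle fibres, so cells of blood vessels, connective tissue and nerve in the same muscle should keep Usp21. Polyadenylated RNA was read from 1 library per mouse, with log2 fold changes given throughout as knockout minus control. Which mice share a litter is not stated, and the p-values describe the spread among these 6 libraries, whatever its source.

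Total counts per library lay between 53906493 and 65425324 in knockout muscle and between 48658436 and 67332846 in control muscle. A count of 0 allowed up to 3 counts, or 0.0454 to 0.0598 CPM (counts scaled to library size), which covers counting error only. All 6 myofibre markers were detected, with summed levels of 101524 to 106315 CPM in knockout libraries and 98478 to 116250 CPM in control libraries. Summed levels of gene lists, here and below, were scaled to total counts alone, unlike the CPM of single genes. The summed level of the 9 slow-fibre markers ranged from 662 to 1738 CPM in knockout libraries and from 160 to 1538 CPM in control libraries, and control 3 stood apart with 160 CPM. In whole muscle, fewer cells of a type and less RNA per cell cannot be told apart.

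Ubiquitin is a small protein that cells attach to other proteins to send them to the proteasome, move them between compartments or alter what they bind. Deubiquitinases remove it, and the ubiquitin-specific proteases (USPs) are their largest family. They share a catalytic fold with a cysteine that attacks the bond to ubiquitin, and differ mostly in the domains around it, which choose partners and location. Usp21 itself is known for removing ubiquitin from histone H2A and from several signalling proteins. In muscle, ubiquitin signalling is best known for its part in protein breakdown during wasting, and Usp19 is among the USPs studied there. Since many USPs act on overlapping substrates, a natural question is which of them muscle makes in quantity and whether any was higher where Usp21 had been deleted. Only RNA was measured.

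The active-site cysteine lies in a short conserved stretch, the Cys box, shown here because it is the stretch most family members share. The pattern asparagine, any residue, glycine, any residue, threonine or serine, cysteine was found in the principal protein of 49 of the 55 members. It was not found in Usp47, Usp10, Usp39, Usp54, Usp53 and Usp6nl. A variant stretch would escape this fixed pattern, so its absence does not show that a protein lacks the active-site cysteine. Usp6nl bears the symbol but is a Rab GTPase-activating protein and no protease. Aligned to the catalytic stretch of Usp21 (351 of its 566 residues), Usp2 was the closest member with 49.3% identity. It was followed by Usp11 with 39.3%, Usp43 with 39.0%, Usp4 with 38.5% and Usp20 with 37.6%, and the lowest value was 15.7% for Usp6nl. The coding bases around the active-site cysteine are shown for Usp21 and these closest relatives, 5′ to 3′ on the coding strand, from the GRCm38 genome with GENCODE M21 transcripts; the cysteine codon is in capitals.
Usp21: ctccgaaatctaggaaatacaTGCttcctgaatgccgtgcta
Usp2: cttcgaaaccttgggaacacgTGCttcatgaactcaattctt
Usp11: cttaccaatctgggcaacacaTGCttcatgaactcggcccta
Usp43: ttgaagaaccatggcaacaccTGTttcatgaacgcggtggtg
Usp4: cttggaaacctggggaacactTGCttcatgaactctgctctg
Usp20: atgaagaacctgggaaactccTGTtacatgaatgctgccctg
In this window of 42 bases Usp2 shared 29 bases and 11 of 14 residues with Usp21, while Usp20 shared 25 bases and 8 residues. The Usp21 window lies at chr1:171285355-171285562 on the minus strand and is interrupted by an intron, as is the Usp2 window at chr9:44089162-44090050 on the plus strand. Those of Usp11 (chrX:20713352-20713393, plus), Usp43 (chr11:67921701-67921742, minus), Usp4 (chr9:108366834-108366875, plus) and Usp20 (chr2:31004943-31004984, plus) each lie within 1 exon.

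Levels of different genes were compared in FPKM, which divides by transcript length, over all 6 libraries. Usp2 was the most abundant member, at 133 ± 9.82 FPKM in knockout muscle and 104 ± 9.84 FPKM in control muscle (SD, n = 3 each). It ranked 499th among all genes, above 98.0% of them. Usp2 is an output gene of the circadian clock in many tissues. Usp13, a paralog of Usp5 that acts on regulators of autophagy, followed at 79.3 ± 2.74 FPKM in knockout and 77.4 ± 12.1 FPKM in control muscle. Usp47, a relative of Usp7 linked to base excision repair, stood at 60.7 ± 1.93 FPKM in knockout and 63.4 ± 3.87 FPKM in control muscle. Usp19, which occurs in a form anchored in the endoplasmic reticulum and is linked to muscle wasting, stood at 45.6 ± 3.97 FPKM in knockout and 50.4 ± 2.55 FPKM in control muscle. Usp25, known for an isoform made in muscle, stood at 32.9 ± 1.24 FPKM in knockout and 32.4 ± 1.53 FPKM in control muscle.

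The libraries of Usp2 lay above all those of Usp13, while Usp13 and Usp47 overlapped in their per-library FPKM. Usp47, Usp19, Usp25, Usp4 and Usp5 each lay above the next in order without overlap, Usp5 by the narrowest margin, and from Usp16 to Usp15 neighbours overlapped. The remaining members of the leading 12 stood lower. Usp4 averaged 24.7 FPKM in knockout and 24.9 FPKM in control muscle, and Usp5 19.4 FPKM in knockout and 21.8 FPKM in control muscle. Usp16 averaged 17.0 FPKM in knockout and 17.8 FPKM in control muscle, and Usp7 16.6 FPKM in knockout and 17.0 FPKM in control muscle. Usp28 averaged 15.5 FPKM in knockout and 17.97 FPKM in control muscle, Usp24 14.2 FPKM in knockout and 14.99 FPKM in control muscle, and Usp15 14.6 FPKM in knockout and 14.4 FPKM in control muscle. TPM placed the same genes among the leading 12. Of the 55 members, 41 had a mean of at least 1 FPKM, 24 of at least 5 FPKM, 15 of at least 10 FPKM and 7 of at least 20 FPKM. The 5 most abundant members held 57.5% of the summed FPKM of the family in knockout muscle and 54.5% in control muscle.

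**Figure D1:**
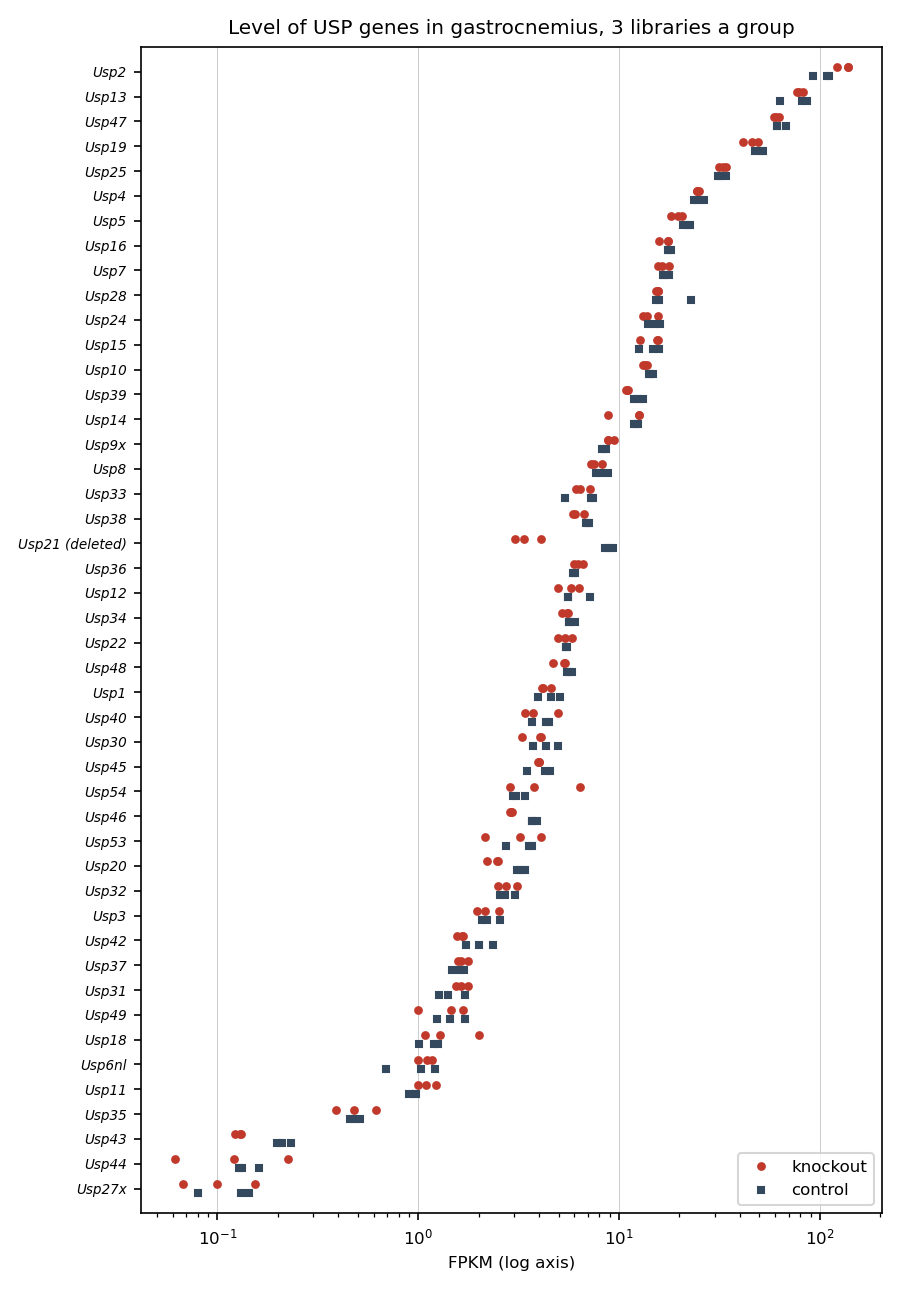
FPKM per library (log axis) of the USP genes that were tested, ordered by mean level, with knockout libraries as circles and control libraries as squares. Usp2 leads at 133 FPKM in knockout and 104 FPKM in control muscle. By the mean over all libraries, which includes the knockout ones, Usp21 lies between Usp38 and Usp36.

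By the mean over all 6 libraries, which includes the knockout ones, Usp21 lay between Usp38 and Usp36. In control muscle alone it stood higher, between Usp14 with 12.1 FPKM and Usp9x with 8.44 FPKM. Usp21 had 3.497 ± 0.538 FPKM in knockout and 8.92 ± 0.399 FPKM in control libraries (SD, n = 3 each). Its read counts fell to 7.91 ± 1.02 CPM in knockout muscle, against 19.2 ± 0.0762 CPM in control muscle (log2 fold change -1.28, SE 0.11, edgeR adjusted p = 0.0355), and the groups did not overlap. The adjusted p was above 0.05 when control 1, control 2, control 3 or knockout 2 was left out, reaching 0.186. With any 1 library left out, the log2 fold change stayed between -1.40 and -1.22. Counts cover the whole gene, so they measure residual transcript and not a specific deleted exon.

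No other USP gene passed the test across all 14109 genes. At an edgeR adjusted p under 0.05, 0 of 45 members were higher in knockout muscle, where 0.0354% of all tested genes were, and 0 were lower, where 0.0213% of all were. At an unadjusted p under 0.05, Usp2 was the 1 member higher (2.22% of members, against 6.56% of all genes), and Usp20, Usp46 and Usp43 were the 3 lower (6.67%, against 5.07% of all genes). DESeq2's Wald test called 1 member higher at an adjusted p under 0.05, again Usp2, beside 1.55% of all genes, and 0 lower, beside 0.59% of all genes. All 3 knockout CPM values lay above all control values in Usp9x, Usp2 and Usp11 (6.67% of members, against 8.38% of all genes). They lay below in Usp5, Usp46, Usp20, Usp42 and Usp43 (11.1% of members, against 8.87% of all genes). The count below the controls depended on the scaling. It was 7 with upper-quartile scaling (15.6% of members, against 9.72% of all genes) and 10 on log2 FPKM (22.2%, against 15.7% of all genes). Most other shares are near or under those of all genes, and the DESeq2 share rests on a single member.

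The median log2 fold change of the 45 members was 0.0067, with 24 positive and 21 negative, beside -0.0037 over all tested genes. The sign of the members' median is not stable, since it was -0.046 with limma on log2(FPKM + 1), where that of all genes was -0.047. Members ranged from -0.64 for Usp43 to 0.53 for Usp54. The data bound how large a difference could be in most of the family: the 95% interval of the fold change, taken gene by gene, lay within 2-fold in either direction for 40 of 45 members. It excluded a 2-fold rise in 42 members and a 1.5-fold rise in 37. The 8 whose interval reached a 1.5-fold rise were Usp2, Usp54, Usp18, Usp6nl, Usp11, Usp35, Usp44 and Usp27x, and the last 3 averaged under 1 FPKM.

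**Figure D2:**
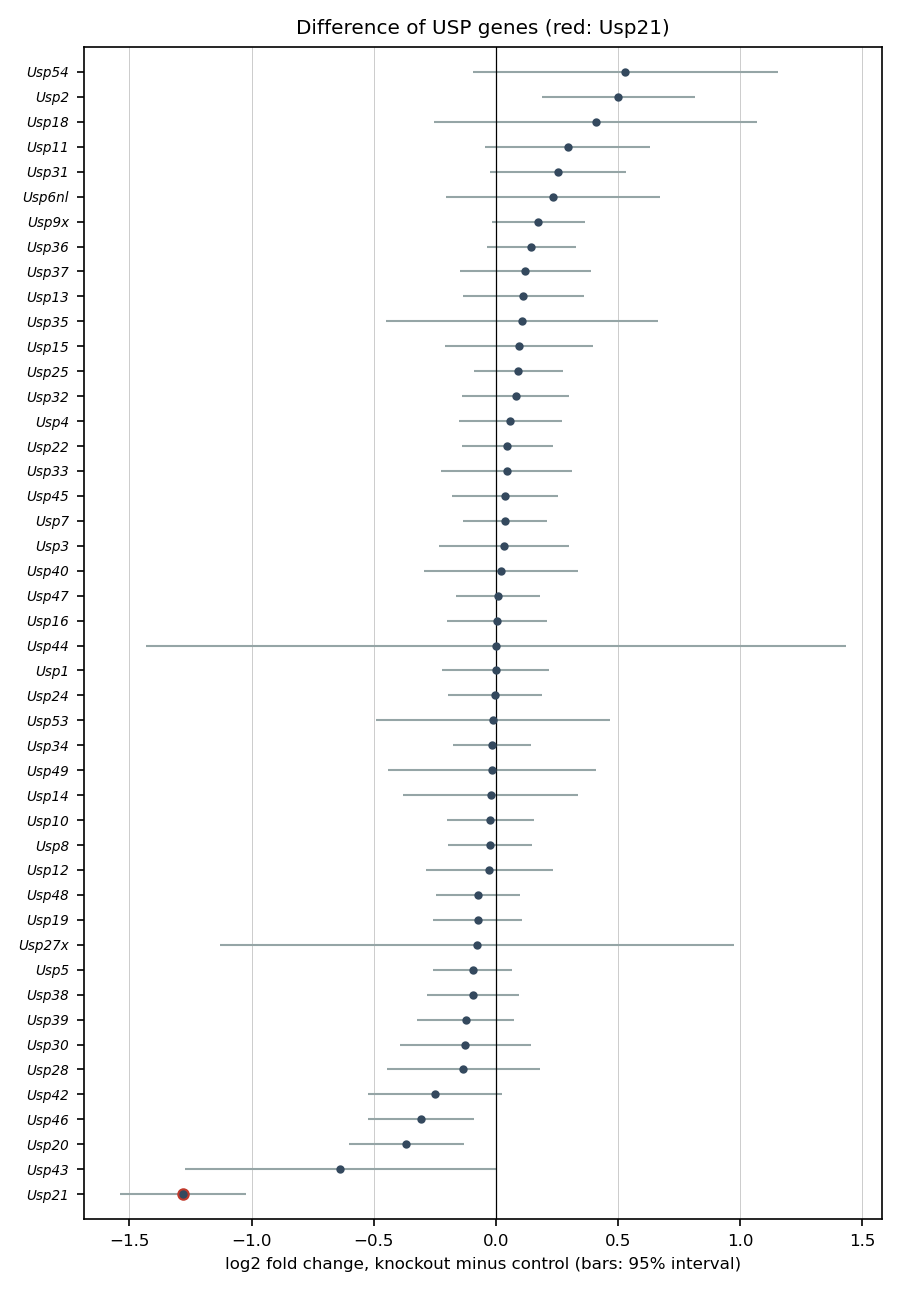
Log2 fold change (knockout minus control) of each tested USP gene from edgeR, with its 95% interval, and Usp21 ringed in red at the bottom at -1.28. The other members spread between -0.64 and 0.53, and wide bars belong mostly to genes with few reads.

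Usp2 had the smallest p of all members. It stood at 518, 556 and 429 CPM in knockout libraries 1 to 3, and at 367, 304 and 390 CPM in control libraries 1 to 3. Every knockout library was above every control library, knockout 3 by the least. The log2 fold change was 0.50 (SE 0.13, 95% interval 0.19 to 0.81), or 1.42-fold, with an edgeR adjusted p of 0.312. An exact two-sided permutation test of log2 CPM gave p = 0.1, the smallest that 3 against 3 libraries allow. DESeq2 gave a log2 fold change of 0.50 with an adjusted p of 0.0297, the only setting in which a member other than Usp21 passed. Over all settings tried the log2 fold change stayed between 0.35 and 0.60 and the adjusted p between 0.0297 and 0.763. Because Usp2 is a clock output gene, the clock list is given beside it. The 18 circadian clock genes tested, all with reads in every library, summed to 1396 to 1557 CPM in knockout libraries and 1765 to 1895 CPM in control libraries. Their log2 fold changes were negative in 12 and positive in 6 between -1.30 and 0.95 (median -0.17), and 0 passed an adjusted p of 0.05 in edgeR. At an unadjusted p under 0.05, 3 of the 18 were higher (16.7%, against 6.56% of all genes) and 5 were lower (27.8%, against 5.07% of all genes). Their part in the Usp2 result was not tested.

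Usp25 and Usp36 were grouped with Usp2 as enzymes of a muscle isoform and of the nucleolus. Usp25 stood at 153, 158 and 142 CPM in knockout and 138, 144 and 143 CPM in control libraries (log2 fold change 0.092, edgeR adjusted p = 0.682). Usp36, which acts in the nucleolus on ribosome assembly, stood at 34.1, 38.1 and 37.8 CPM in knockout and 33.3, 31.9 and 34.2 CPM in control libraries (0.14, SE 0.078, edgeR adjusted p = 0.529). In both genes 1 knockout library lay inside the range of the controls.

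Usp5, Usp13 and Usp14 recycle ubiquitin: Usp5 takes apart free chains, Usp13 is its paralog, and Usp14 sits on the proteasome and trims chains from its substrates. Their mean levels over all libraries ran from 11.7 to 78.3 FPKM. Usp5 stood at 63.9, 63.1 and 66.8 CPM in knockout and 69.5, 68.5 and 69.0 CPM in control libraries. The groups did not overlap, but the difference was small (log2 fold change -0.095, SE 0.069, edgeR adjusted p = 0.637). Usp13 stood at 367, 400 and 392.2 CPM in knockout and 376, 387 and 309 CPM in control libraries, and control 3 alone was low (0.11, edgeR adjusted p = 0.718). Usp14 stood at 53.8, 57.3 and 37.2 CPM in knockout and 49.4, 49.8 and 51.3 CPM in control libraries. The value of -0.021 (SE 0.15, edgeR adjusted p = 0.973) was near 0, with knockout 3 the lowest of the 6 libraries.

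Enzymes of membranes and mitochondria comprised Usp19, Usp30 and Usp35, at mean levels of 0.488 to 48.0 FPKM. Usp19 stood at 222, 211 and 236 CPM in knockout and 239, 233 and 231 CPM in control libraries, with overlapping groups (log2 fold change -0.074, edgeR adjusted p = 0.747). Usp30, which sits on the outer mitochondrial membrane and opposes mitophagy, and Usp35 had log2 fold changes of -0.12 and 0.11. Neither passed the test.

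The histone and chromatin enzymes were Usp3, Usp7, Usp16, Usp22, Usp27x, Usp44, Usp49 and Usp51, several of which, like Usp21, act on ubiquitinated histones H2A or H2B. In the 7 tested, 5 log2 fold changes were positive and 2 negative, from -0.077 to 0.047, with a median of 0.0067. Usp16, a protease of histone H2A, stood at 52.1, 55.8 and 47.1 CPM in knockout and 52.2, 48.8 and 53.3 CPM in control libraries (0.0067, edgeR adjusted p = 0.987). Usp7, which stabilises Mdm2 and p53, stood at 90.6, 92.2 and 98.4 CPM in knockout and 89.7, 91.8 and 92.7 CPM in control libraries (0.036, edgeR adjusted p = 0.885). Groups overlapped in all 7. Their levels ran up to 17.4 FPKM for Usp16, while Usp27x and Usp44 averaged 0.113 and 0.138 FPKM and Usp51 had 4 counts, all in control 2. In Usp49, 51.2% of exon bases are shared with another annotated gene on the same strand, so its counts are uncertain.

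Enzymes tied to DNA repair, p53 and the cell cycle were Usp1, Usp10, Usp11, Usp24, Usp28, Usp37, Usp42, Usp45, Usp47 and Usp48, with 4 positive and 6 negative log2 fold changes between -0.25 and 0.29 and mean levels of 1.03 to 62.1 FPKM. Usp11, a paralog of Usp4 and Usp15 that also acts with Brca2, stood at 3.85, 3.77 and 4.34 CPM in knockout and 3.33, 2.98 and 3.45 CPM in control libraries. The groups did not overlap, at a low level (0.29, SE 0.15, edgeR adjusted p = 0.493). Usp42, a protease of p53, stood at 8.14, 9.18 and 8.76 CPM in knockout and 10.2, 11.5 and 9.26 CPM in control libraries. All knockout libraries were below all controls by a narrow margin (-0.25, SE 0.12, edgeR adjusted p = 0.472). Usp28, a checkpoint enzyme that stabilises Myc, stood at 67.2, 69.6 and 67.5 CPM in knockout and 65.9, 91.6 and 66.5 CPM in control libraries. Control 2 stood above the other 5 libraries, and the log2 fold change of -0.13 (edgeR adjusted p = 0.740) was 0.033 without it. Usp47 (0.0090, edgeR adjusted p = 0.977) and Usp24 (-0.0025, edgeR adjusted p = 0.995) lay near 0, with Usp47 at 345, 357 and 357 CPM in knockout and 338, 362 and 353 CPM in control libraries. Usp24 stood at 149, 152 and 169 CPM in knockout and 157, 162 and 152 CPM in control libraries, and both genes overlapped between groups.

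Among enzymes of Wnt, TGF-beta and NF-kappaB signalling (Usp4, Usp9x, Usp15, Usp31 and Usp34), 4 log2 fold changes were positive and 1 negative, at mean levels of 1.56 to 24.8 FPKM. Usp9x, a large X-linked enzyme with Smad4 among its substrates, stood at 107, 122 and 107 CPM in knockout and 99.3, 97.1 and 102 CPM in control libraries. The groups did not overlap, with a log2 fold change of 0.17 (SE 0.082, edgeR adjusted p = 0.469). Usp31, linked to NF-kappaB, stood at 17.0, 19.5 and 16.05 CPM in knockout and 14.1, 16.6 and 13.4 CPM in control libraries (0.25, SE 0.12, edgeR adjusted p = 0.469), and control 2 reached into the knockout range. Usp4, which acts on the TGF-beta receptor, stood at 93.0, 97.7 and 91.7 CPM in knockout and 84.9, 86.0 and 100 CPM in control libraries (0.059, edgeR adjusted p = 0.840). Its paralog Usp15 stood at 149, 194 and 183 CPM in knockout and 142, 173 and 176 CPM in control libraries (0.094, edgeR adjusted p = 0.821). The groups overlapped in Usp4 and in Usp15.

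Lower values in knockout muscle were seen in single members of other classes. Usp20, which recycles receptors from endosomes together with its paralog Usp33, stood at 9.34, 11.2 and 10.5 CPM in knockout and 13.9, 12.8 and 13.3 CPM in control libraries. Its groups did not overlap, with a log2 fold change of -0.37 (SE 0.10, unadjusted p 0.0074 and edgeR adjusted p = 0.319). In the rest of that class, Usp8, Usp32 and Usp33, log2 fold changes lay between -0.024 and 0.081, and the mean levels of the class were 2.77 to 7.95 FPKM. Usp46, activated by the scaffold Wdr48, stood at 9.42, 10.2 and 9.64 CPM in knockout and 12.5, 11.3 and 12.3 CPM in control libraries. Its groups did not overlap (-0.31, SE 0.093, edgeR adjusted p = 0.350), whereas its close paralog and fellow Wdr48 partner Usp12 had a value of -0.027 with overlapping groups. The mean levels of Usp46 and Usp12 were 3.34 and 5.90 FPKM.

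**Figure D3:**
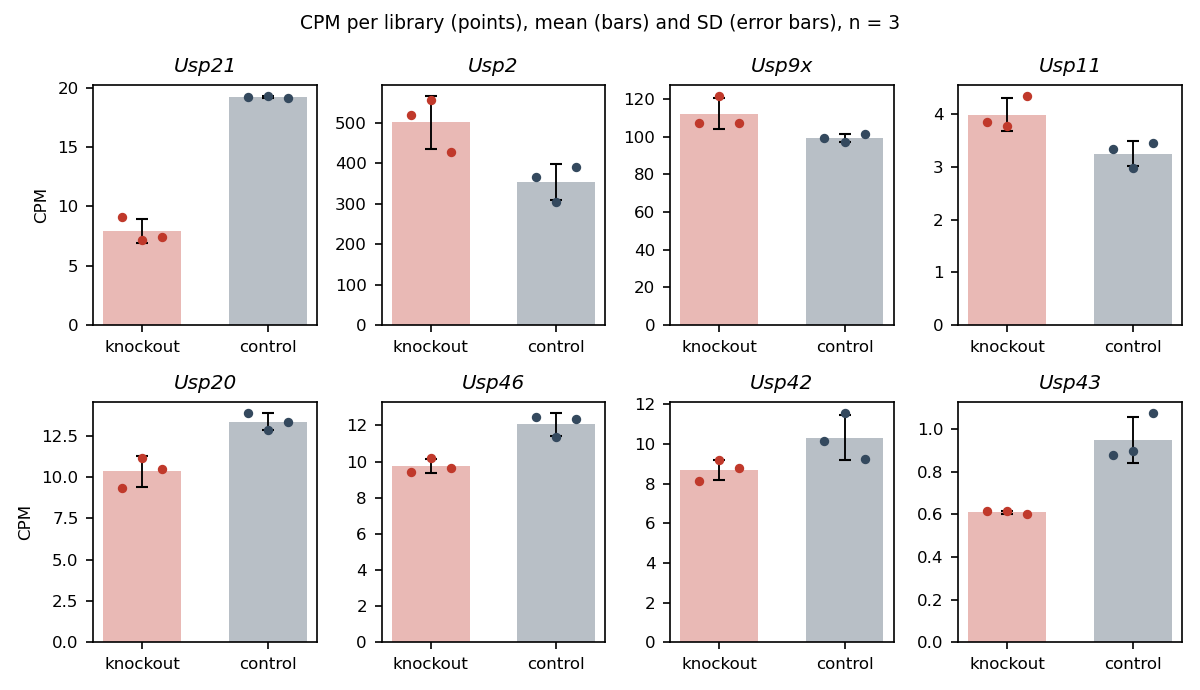
CPM of Usp21 and of the USP genes with non-overlapping groups other than Usp5, as points per library over bars of the mean with SD (n = 3 each). Usp21 averaged 7.91 CPM in knockout and 19.2 CPM in control muscle; in Usp2, Usp9x and Usp11 the knockout points lie above the control points, and in the others below.

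Of the little-described enzymes Usp38, Usp40, Usp43, Usp50, Usp53 and Usp54, at mean levels of 0.0095 to 6.61 FPKM, Usp43 had the lowest log2 fold change of all members. It stood at 0.614, 0.614 and 0.602 CPM in knockout and 0.878, 0.895 and 1.07 CPM in control libraries, with no overlap. Its difference on the log2 scale was -0.64 (SE 0.27; edgeR, adjusted p 0.428), at a mean level of 0.171 FPKM over all libraries. Since the use of strand in counting is not stated, reads of a gene on the opposite strand may be included where exons overlap. Such overlap with a single gene covers 12.8% of the exon bases of Usp43, 26.0% in Usp14, 20.5% in Usp38, 15.3% in Usp33 and 11.6% in Usp34. In Usp33, Gm42967 (7.70%) and Gm43859 (1.44%) overlap as well. Usp54 had the highest log2 fold change, 0.53 (SE 0.27, edgeR adjusted p = 0.499). It stood at 19.0, 26.5 and 42.5 CPM in knockout and 19.7, 18.4 and 22.7 CPM in control libraries, so groups overlapped and knockout 3 was far above the rest. Without knockout 3 the value was 0.16. Knockout 3 also had the highest summed level of the 9 slow-fibre markers and of the 6 Schwann and nerve markers. Slow-fibre sums were 1031, 662 and 1738 CPM in knockout and 1515, 1538 and 160 CPM in control libraries 1 to 3. Schwann and nerve sums were 169, 91.9 and 372 CPM in knockout and 120, 307 and 275 CPM in control libraries 1 to 3. No marker of either list was at 0 in any library, and their part in the Usp54 value was not tested. Usp38, Usp40 and Usp53 lay between -0.095 and 0.021.

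Usp18 removes the ubiquitin-like protein ISG15 and is induced by interferon. It stood at 1.96, 3.87 and 2.34 CPM in knockout and 1.78, 2.04 and 2.31 CPM in control libraries, with knockout 2 the highest and the groups overlapping (log2 fold change 0.41, SE 0.28, edgeR adjusted p = 0.628). The 16 interferon-response genes summed to 80.2 to 93.3 CPM in knockout and 80.9 to 85.1 CPM in control libraries, and 0 passed the test. Their log2 fold changes were positive in 10 and negative in 6 (median 0.20). At an unadjusted edgeR p under 0.05, 2 were higher (12.5%, against 6.56% of all genes) and 0 lower (against 5.07%). Without overlap, 3 lay higher (18.75%, against 8.38% of all genes) and 0 lower (against 8.87%). Their part in the Usp18 value was not tested. Usp39, a splicing factor without protease activity, had a value of -0.12 (edgeR adjusted p = 0.626), and Usp6nl one of 0.24 (edgeR adjusted p = 0.667). The untested members were the germ-line enzymes Usp26, Usp29, Usp17la, Usp17lb, Usp17lc, Usp17ld and Usp17le, the Y-linked Usp9y, and Usp50 and Usp51. Of these, 7 had 0 counts in all 6 libraries, Usp50 had 4, 4 and 0 counts in knockout and 0 in each control library, and Usp29 had 2 counts, all in control 3. The Usp17 genes are near-identical copies, so their counts are uncertain.

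Likeness in sequence to Usp21 went with no common direction. Among the closest 5, Usp2 and Usp11 had log2 fold changes of 0.50 and 0.29, Usp4 had 0.059, and Usp43 and Usp20 had -0.64 and -0.37. The groups did not overlap in Usp2, Usp11, Usp43 and Usp20, and overlapped in Usp4. Of all tested genes, 8.38% lay higher without overlap and 8.87% lower. Usp11 and Usp43 averaged only 1.03 and 0.171 FPKM over all libraries. Whether likeness to Usp21 goes with a difference was not tested. Over the 10 closest members that were tested the median was 0.016, with 6 positive and 4 negative. The levels of the 5 in FPKM differ widely, and only Usp2 and Usp4 exceeded 10 FPKM.

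**Figure D4:**
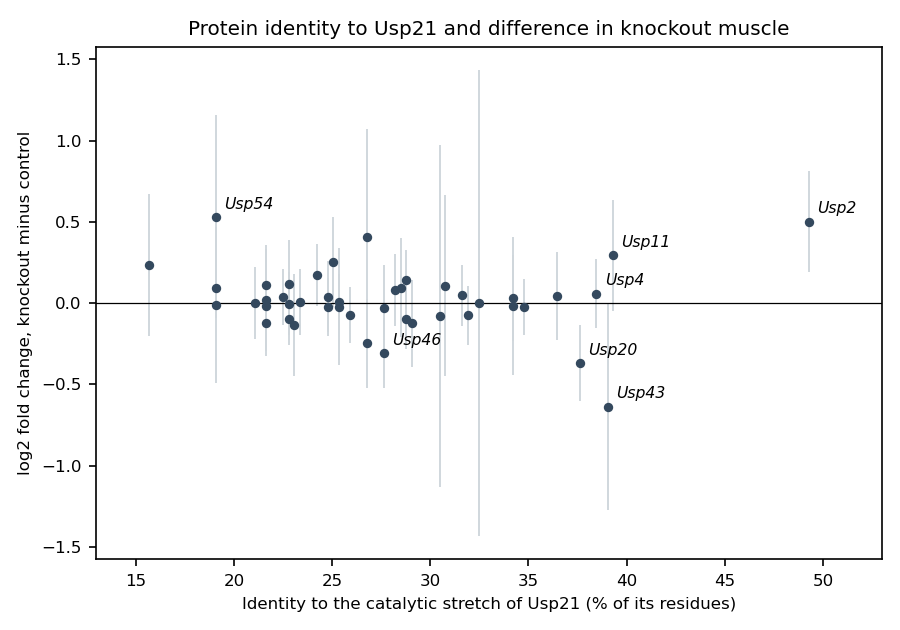
Log2 fold change (knockout minus control, edgeR, bars 95% interval) of each tested USP gene against the identity of its protein to the catalytic stretch of Usp21, as percent of that stretch. Usp2 lies alone at 49.3% with a value of 0.50, and the next closest genes lie on both sides of 0.

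The counts and FPKM of Usp2 were not in a fixed ratio across libraries, which is described here without a test because it was looked at after the values were seen. If the counts were reads or fragments and FPKM was made from them, counts divided by FPKM, once scaled on genes with 1 listed transcript, give an apparent transcript length for each library. How the counts were made is not stated, so these lengths hold only under that reading. For 6021 genes with 1 listed transcript this ratio was nearly constant between libraries (95% of them had a coefficient of variation of at most 0.0963%), so counts and FPKM are not independent of each other. Usp2 has 3 listed transcripts of 2122, 2057 and 3867 bases, of which the first and last encode a protein of 619 residues and the second one of 396 residues with another start. Its apparent length was 3681, 3698 and 3468 bases in knockout libraries 1 to 3, and 3423, 3439 and 3410 bases in control libraries 1 to 3. Every knockout library was above every control library, knockout 3 narrowly so. The means were 3615 ± 128 bases in knockout and 3424 ± 14.2 bases in control muscle (SD, n = 3 each), 5.59% longer in knockout. Being built from the same counts, these lengths are no further support for the difference in level.

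The variation of the Usp2 ratio over the 6 libraries was 3.77%, against at most 0.363% (Usp37) in the other 16 members with several listed transcripts. Larger values occurred in 169 of 3543 genes with several transcripts (4.77%), and the median of all 3543 was 0.263%. In all of these libraries the apparent length lay nearer to the longest listed transcript than to the others. Levels of single transcripts were not analysed here.

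**Figure D5:**
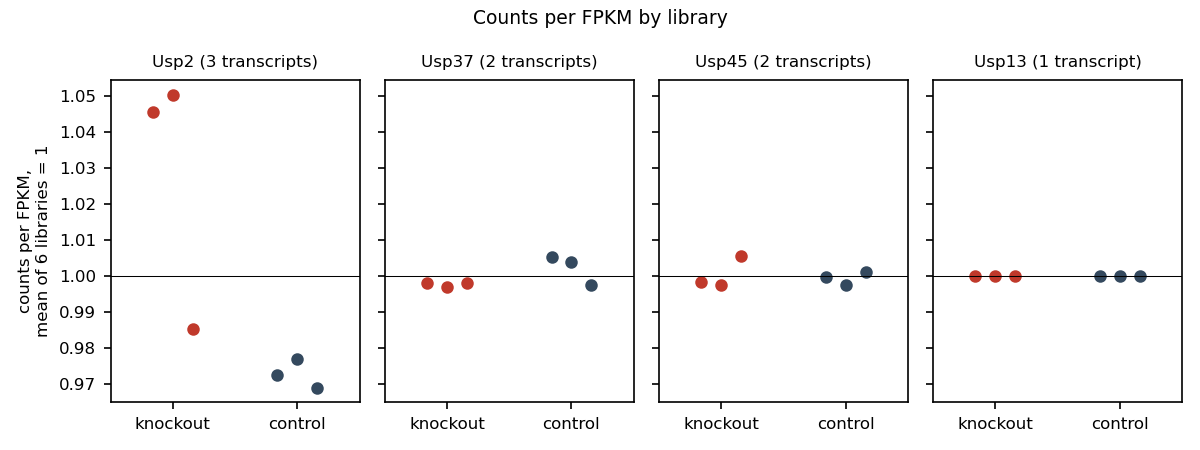
Counts per FPKM in each library, divided by the mean of the 6 libraries, for Usp2, for the next most variable members Usp37 and Usp45, and for Usp13 with 1 listed transcript. The axis starts above 0; in Usp2 the knockout libraries lie above the control libraries, and in Usp13 all points lie at 1.

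Summed over the 55 members, FPKM came to 614, 605 and 616 in knockout libraries and 604, 622 and 578 in control libraries, so the groups overlapped. The means were 612 ± 6.22 FPKM in knockout and 601 ± 22.0 FPKM in control muscle (SD, n = 3 each), a difference of 10.3 FPKM that is smaller than the spread of the controls. Usp21 itself differed by -5.42 FPKM and Usp2 by 28.7 FPKM. Without Usp2 the members' sum was 479 ± 14.7 FPKM in knockout and 497 ± 30.9 FPKM in control muscle. That difference of -18.4 FPKM was smaller than the spread of the controls, and the groups overlapped. These sums use FPKM as deposited. On log2(FPKM + 1) the median log2 fold change over all tested genes was also negative, at -0.047. The share of Usp2 in the family's FPKM was 21.8 ± 1.76% in knockout and 17.4 ± 2.19% in control muscle, with non-overlapping groups.

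Genes of the other deubiquitinase families were listed in 6 groups (USP genes under other names, UCH, OTU, Josephin, JAMM, and MINDY with ZUP1). Old and new symbols of some genes stood side by side. Family membership alone placed a gene there, so some, such as Prpf8 and Pan2, are not established deubiquitinases. Eif3f, a translation factor subunit of the JAMM list, is among the lower genes counted below. The symbols matched 43 genes of the table, of which 40 were tested. At an edgeR adjusted p under 0.05, 0 passed in either direction, and at an unadjusted p under 0.05, 1 was higher (2.5%, against 6.56% of all genes) and 4 were lower (10%, against 5.07% of all genes). The groups did not overlap in 1 higher gene (2.5%, against 8.38% of all genes) and 5 lower genes (12.5%, against 8.87% of all genes). Their log2 fold changes were positive in 24 and negative in 16, with a median of 0.020. The smallest p belonged to Otub2, an enzyme of the OTU family with a larger fold change and a smaller p than any USP gene other than Usp21. It stood at 11.9, 9.57 and 12.2 CPM in knockout and 17.7, 20.3 and 21.2 CPM in control libraries. Its groups did not overlap (-0.81, SE 0.12, edgeR adjusted p = 0.133). Vcpip1, a partner of the p97 ATPase, came next at 21.5, 21.03 and 19.99 CPM in knockout and 16.9, 18.7 and 16.2 CPM in control libraries, also without overlap (0.27, edgeR adjusted p = 0.363). Among 13 tested partners of USP enzymes the median was -0.039 with 0 called, and the 4 ubiquitin genes lay between -0.14 and 0.52 with 0 called.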

How the data were processed

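Poly(A)-selected, strand-preserving libraries of 6 muscles were used. Read counts per gene were deposited by the authors as whole numbers without normalization, per the file headers; the authors also deposited FPKM (per length and library) and TPM, the latter used only for a check of ranks. The submitters' processing notes list StringTie 1.3.4d, Bowtie2 2.3.4.1, FastQC 0.11.7 and bcl2fastq 2.20.0 and the build mm10. Not given in the sources used here are the counting method and any use of strand.

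Counts were tested with edgeR 4.0.16 in R 4.3.3: filterByExpr with a minimum count of 10 (14109 genes kept, 10423 not tested), TMM, quasi-likelihood F test, and Benjamini-Hochberg adjustment over all tested genes at 0.05. SEs came from the F statistic. CPM of single genes used TMM-scaled library sizes, and log2 CPM a prior count of 2. Summed CPM of marker, clock and interferon lists used total counts without TMM factors, which ran from 0.936 to 1.07. Biological variation (common coefficient) was 19.2%. The code was tested on simulated data. Each library counted as a sample because it came from a separate mouse. Within groups, libraries differed beyond counting noise (chi-square of at least 35.1 per degree of freedom), whatever the source.

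Proteins were translated from GENCODE M21 principal transcripts, in place of the RefSeq proteins planned, and aligned with BLOSUM62 (gap opening 11, extension 1) in Biopython 1.88. Positions are GRCm38 and overlaps are from GENCODE M21.

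Named genes were Usp21, the 12 members highest in FPKM, the 10 with the smallest p, the 5 closest in sequence, members of each role group, and the 2 other deubiquitinases with the smallest p. The members and lists were chosen with earlier results of these data known. Alternatives were DESeq2 1.42.0's size factors and Wald test (554 genes without adjusted p), upper-quartile scaling, no filter, a 1 CPM filter, limma 3.58.1 voom, limma on log2(FPKM + 1) or log2(FPKM + 0.1), a replicate block, and leaving out each library. Columns of samples outside the series numbered 0.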

Additional observations from a re-analysis of the deposited data

How the results depend on the processing

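Across all alternatives the count of members called higher was 0 except with DESeq2's Wald test, where it was 1 (Usp2), and the count called lower was 0. The members' median log2 fold change of 0.0067 lay between -0.00021 and 0.031 with any 1 library left out, with 0.031 without control 2 and likewise without knockout 1. It was -0.046 on log2(FPKM + 1) and -0.066 on log2(FPKM + 0.1), beside -0.047 and -0.070 for all genes. With log2 FPKM in place of log2 CPM, 10 members lay below the controls without overlap (22.2%, against 15.7% of all genes on that scale), where log2 CPM gave 5; upper-quartile scaling gave 7. Samples with the same replicate number showed no positive correlation of their deviations from the group mean (-0.00823, -0.186 and -0.0981). Deviations from a mean of 3 libraries are tied to each other, so these correlations cannot exclude a shared litter, day or batch. With a replicate block Usp21 had -1.29 and an edgeR adjusted p of 0.200. Usp21 had -1.15 on log2(FPKM + 1) and -1.34 on log2(FPKM + 0.1), both with an adjusted p above 0.05 (0.0657 and 0.0552), and -1.40 to -1.22 with any 1 library left out (0.0185 to 0.186). In these settings the cause was not tested.

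For 21 single members, 314 alternatives gave 289 values with the same direction and side of the threshold, 1 newly past it (Usp2, DESeq2) and 24 of opposite sign in 7 members, where neither value was called. Usp47 was -0.0051 with upper-quartile scaling, -0.061 and -0.062 on the FPKM scales, and -0.022 to 0.023 with single libraries left out. Usp4 was -0.0078 and -0.0080 on the FPKM scales. Usp16 was -0.0082 with upper-quartile scaling, -0.063 and -0.066 on the FPKM scales, and -0.052 to 0.068 with libraries left out. Usp7 was -0.033 and -0.035 on the FPKM scales and -0.00018 to 0.055 with libraries left out. Usp28 ranged from -0.22 to 0.033 and Usp15 from -0.0037 to 0.19 with libraries left out. Usp24 was 0.0013 with DESeq2's size factors, 0.00022 with a 1 CPM filter, 0.0012 with DESeq2's Wald test, and -0.061 to 0.026 with libraries left out. Usp43 had no value under the 1 CPM filter. Usp27x, Usp43 and Usp44 averaged under 1 CPM and had wide intervals.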
